A study of Mus musculus with 7 samples.

Results

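The probes for long intergenic noncoding RNAs (lincRNAs) on a mouse whole-genome expression array were compared between whole liver of Rbpj-/- and Rbpj+/+ mice. The array carried 16251 such probes among 55681 in all, each 60 bases long and placed in 3555 intergenic regions, many of them with probes to either strand. The probes described here were chosen by their signal: in 3455 of the 16251, every array of 1 genotype or of both read well above background. They covered 1957 combinations of a region and a strand in 1627 regions. Rbpj+/+ animals (n = 4) carried the Rbpj flox/flox alleles without AlfpCre, and Rbpj-/- animals (n = 3) carried the same alleles with AlfpCre, a transgene active in liver parenchyma from embryonic life, so that hepatocytes and bile duct cells but not the other liver cells lose the gene. All mice were C57BL/6J, untreated and 4 weeks old, and the livers of Rbpj-/- mice were cholestatic. Each animal was measured on its own array with no pooling, and sex was not taken from the labels.

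A lincRNA is a spliced or unspliced transcript without a protein-coding frame that arises from DNA between annotated genes. Some lincRNAs act at their own locus on neighbouring genes, others scaffold nuclear bodies or protein complexes or host small RNAs, and for most no function is known. In liver the best studied is H19, an imprinted RNA of fetal hepatocytes that is shut down after birth. Values below are processed signals on a log2 scale with 0 at the 75th percentile of the array, and a difference is Rbpj-/- minus Rbpj+/+ on that scale. A probe was called higher or lower where limma's adjusted p over all 24548 tested probes was below 0.1. Positions are those printed on the array for mouse build mm9.

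All arrays lay on 1 slide, with Rbpj+/+ on its first row and Rbpj-/- on its second, so row and genotype cannot be told apart. Rbpj itself, measured by its brightest probe, fell by 1.13 (SE 0.24, adjusted p = 0.0115) and both of its tested probes were lower; where these lie against the deleted part was not established here. On 2 arrays, those labelled Rbpj +/+_1156 and Rbpj -/-_N3, dim probes were brighter: 49.3% and 51.4% of all lincRNA probes were well above background there, against 20.3% to 26.7% on the other 5.

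The 60-base probes that the results turn on are printed as deposited, 5′ to 3′. Capitals mark the longest run of at least 20 bases that a probe shares, on the same or the reverse-complement strand, with a probe for an annotated gene on the same array. A gene probe covers only 60 bases of a transcript, so lower case does not say that a sequence is absent from every gene. The first set holds the probes with the largest rises, beginning with H19 and the chromosome 9 cluster.
A_30_P01025068: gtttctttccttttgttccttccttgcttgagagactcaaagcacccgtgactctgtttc
A_30_P01018914: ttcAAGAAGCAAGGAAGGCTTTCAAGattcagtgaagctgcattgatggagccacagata
A_30_P01028766: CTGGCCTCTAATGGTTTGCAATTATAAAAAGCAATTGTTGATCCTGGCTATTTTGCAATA
A_30_P01020518: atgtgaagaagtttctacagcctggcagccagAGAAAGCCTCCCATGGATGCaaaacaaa
A_30_P01021311: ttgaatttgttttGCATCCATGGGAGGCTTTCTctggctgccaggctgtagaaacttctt
A_30_P01024472: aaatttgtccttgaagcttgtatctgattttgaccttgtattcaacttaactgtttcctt
A_30_P01033054: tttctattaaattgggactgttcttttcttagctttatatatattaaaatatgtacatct
The second set holds the probes with the largest falls.
A_30_P01025584: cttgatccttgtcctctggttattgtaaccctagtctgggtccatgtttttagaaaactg
A_30_P01022043: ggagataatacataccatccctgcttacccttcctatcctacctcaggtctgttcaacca
A_30_P01022804: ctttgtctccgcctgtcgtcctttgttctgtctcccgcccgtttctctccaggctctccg
A_30_P01019218: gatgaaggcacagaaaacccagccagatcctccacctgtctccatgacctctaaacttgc
A_30_P01017959: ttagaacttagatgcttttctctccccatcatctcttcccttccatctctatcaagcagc
The third set holds a pair of probes from a single region and strand that moved in opposite directions, followed by a probe inside the Kifc1 locus.
A_30_P01025587: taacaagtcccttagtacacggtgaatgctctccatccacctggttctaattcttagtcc
A_30_P01029986: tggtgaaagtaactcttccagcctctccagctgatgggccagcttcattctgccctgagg
A_30_P01023554: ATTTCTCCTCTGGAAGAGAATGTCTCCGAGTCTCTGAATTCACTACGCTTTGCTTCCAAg

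Most lincRNA probes that changed were lower in Rbpj-/- liver. Of the 3455 probes, 1088 (31.5%) were lower, where 19.2% of all tested probes were, and 211 (6.11%) were higher, where 14.3% were. Detection on 1 genotype alone was part of how the probes were chosen, so the count that does not rest on it comes from the 2723 probes well above background on all 7 arrays: 982 (36.1%) were lower, beside 20.7% of all probes so detected, and 140 (5.14%) were higher, beside 12.2%. The median difference of these 2723 probes was -0.49, and that of the 18529 other probes detected on all 7 arrays was -0.12. Of the 982 that fell, 327 fell at least 2-fold, and 63 of the 140 rose at least 2-fold. Among all probes detected on all 7 arrays, 1450 of 4394 lower and 1300 of 2585 higher probes changed at least 2-fold. Without animal Rbpj +/+_1024 the lower count was 575, and without Rbpj -/-_N5 the counts were 504 lower and 84 higher; lower calls still made up 84.8% to 88.7% of the calls whichever animal was left out. Without the same animals 695 and 564 were lower when probes detected through 1 genotype were counted too. Without Rbpj +/+_1156 and Rbpj -/-_N3, whose dim probes were brighter, 879 were lower and 106 higher.

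**Figure D1:**
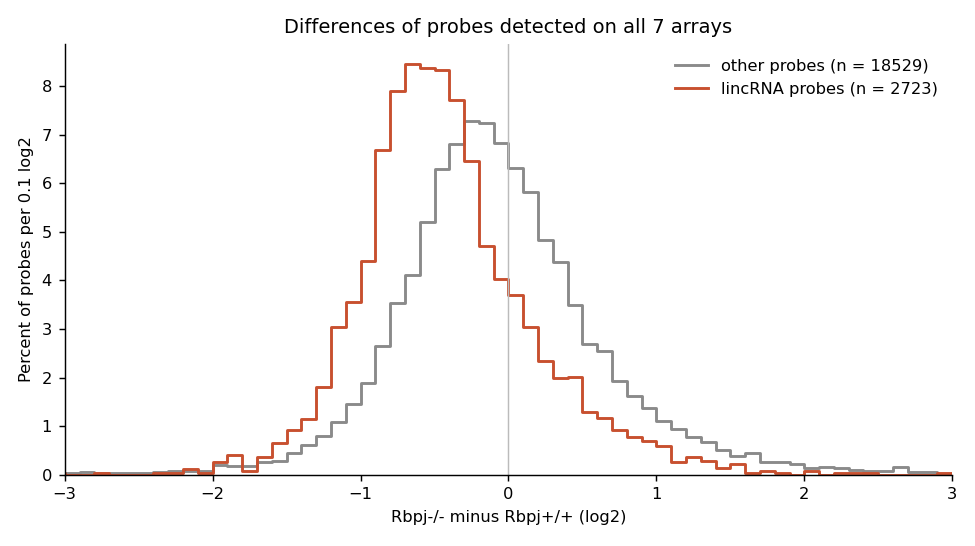
Percent of probes in each 0.1 log2 step of the difference, Rbpj-/- minus Rbpj+/+ (x axis, cut at -3 and 3), for 2723 lincRNA probes and 18529 other probes detected on all 7 arrays. The lincRNA curve sits to the left, with a median of -0.49 against -0.12.

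The remaining 732 probes passed through a single genotype and therefore had to differ or lie near the limit. They were dim, with a median signal of -2.62. Of the 182 detected throughout only in Rbpj+/+, 98 (53.8%) were called lower, beside 57.0% of all tested probes so detected. Of the 550 detected throughout only in Rbpj-/-, 71 (12.9%) were called higher, beside 33.9% of all tested probes so detected. Another 8 (1.45%) of the 550 were called lower, beside 0.724%. Just outside the rule, 806 probes missed it by 1 array and had a median signal of -3.18.

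The excess of lower calls was present at every signal strength. Probe signals depend on sequence as well as on RNA, so quartiles of mean signal over all probes detected on all 7 arrays serve here only to set like with like. From the dimmest quartile to the brightest, 29.8%, 38.8%, 45.1% and 48.9% of lincRNA probes were lower, against 17.6%, 17.3%, 16.2% and 22.2% of other probes. Higher calls were 3.05%, 7.44%, 4.43% and 10.9% of lincRNA probes and 12.3%, 19.8%, 14.4% and 6.81% of the others, so in the brightest quartile the share of higher calls was not below that of other probes.

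**Figure D2:**
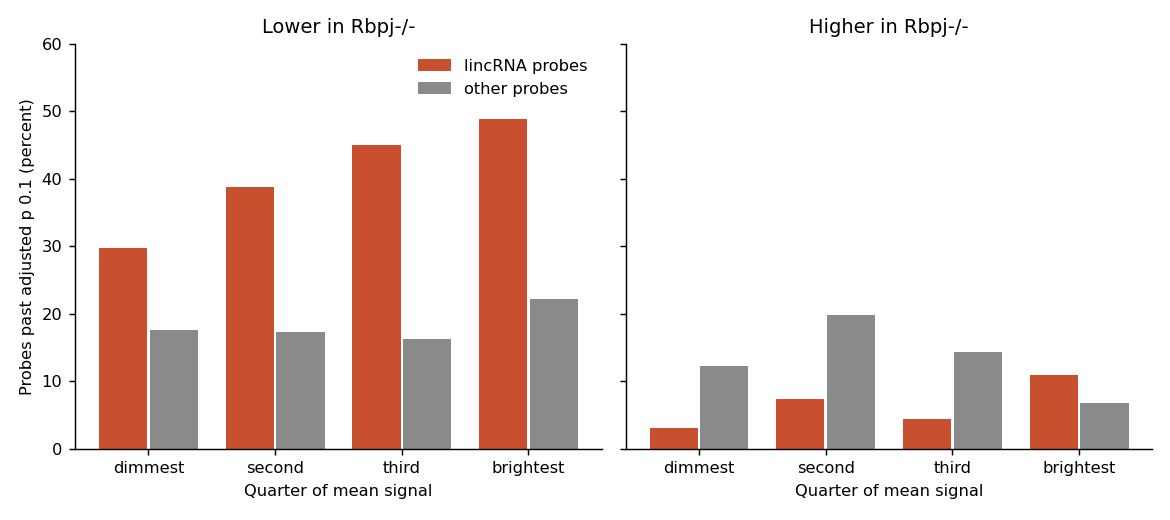
Percent of probes past adjusted p 0.1 that were lower (left) or higher (right) in Rbpj-/- liver, by quartile of mean signal over all probes detected on all 7 arrays, for lincRNA and other probes. The lower share of lincRNA probes runs from 29.8% to 48.9% and that of other probes from 16.2% to 22.2%.

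Base composition moved with the fall. In the quartile of probes lowest in GC content, 28.6% of lincRNA probes were lower, and in the highest 41.5% were, against 17.1% and 21% of other probes. Probes of at least 60% GC made up 9.7% of the lincRNA probes described here but 2.1% of the 12796 left out by the rule. Of 300 such lincRNA probes detected on all 7 arrays, 161 (53.7%) fell, with a median of -0.67, and of 144 other probes of that composition 65 (45.1%) did, with a median of -0.54. The part of base composition in the result was not tested.

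Falls outnumbered rises on every chromosome measured. Over 19 autosomes and X the median difference of the lincRNA probes detected on all 7 arrays ran from -0.61 to -0.4, and the lower share from 26.9% on chromosome 3 to 46.9% on chromosome 5. Forward and reverse strands were held about equally, by 1706 and 1749 probes.

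A like distribution appeared in noncoding genes that have ordinary gene probes and so lie outside the rule. Of 354 genes that RefSeq classes as lncRNA, taken by their brightest probe among those detected on all 7 arrays, 132 (37.3%) were lower and 12 (3.39%) higher, with a median of -0.51. Of 11661 protein-coding genes 1938 (16.6%) were lower and 1790 (15.4%) higher, with a median of -0.08. The lncRNA genes were dimmer, with a median signal of -0.66 against 1.71 for the protein-coding genes. Noncoding genes such as Neat1 and Malat1 are read by lincRNA probes too, so the lncRNA genes are not a set separate from the lincRNA probes.

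Cell type markers differed between the genotypes too. Of 8 hepatocyte markers 6 were lower, and their summed linear signal was 3777.5 to 5155.5 in Rbpj+/+ and 2354.0 to 2861.1 in Rbpj-/- animals. Of 5 macrophage markers 4 were higher (sums of 87.5 to 112.1 and 229.3 to 296.4), as were 5 of 6 stellate and fibroblast markers (31.4 to 50 and 67.0 to 111.9) and 5 of 5 proliferation markers (8.73 to 17.7 and 36.3 to 51.4). All 4 B cell markers were lower (1.93 to 4.47 and 0.795 to 1.65). No defining marker of these lists was undetected, their part in the lincRNA differences was not tested, and in whole liver fewer cells of a type and less RNA per cell cannot be told apart.

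H19 rose most. Its probe A_30_P01025068 (chromosome 7, 149761756 to 149761815, reverse strand) read -0.97, -1.58, -2.36 and 2.81 in animals Rbpj +/+_1155, +/+_1156, +/+_1024 and +/+_991 and 6.13, 6.65 and 7.93 in Rbpj -/-_N3, -/-_N5 and -/-_2866, the order used for all values below. The groups did not overlap, although Rbpj +/+_991 was well above the other 3. The difference was 7.42 (SE 1.08, adjusted p = 0.00297), or 8.54 without that animal. The other 4 H19 lincRNA probes were detected throughout only in Rbpj-/- and lay between 6.59 and 8.19, and the ordinary H19 gene probe rose by 7.44 (SE 1.24).

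The next rises came from chromosome 9, where the regions chr9:78107225-78118850 and chr9:78104935-78116974 overlap inside the cluster of alpha-class glutathione S-transferases, enzymes that conjugate glutathione to toxic electrophiles. Probe A_30_P01018914, forward strand, read 0.32, 0.68, 1.54 and 3.48 in Rbpj+/+ and 5.2, 7.67 and 6.55 in Rbpj-/- animals, a difference of 4.97 (SE 0.79, adjusted p = 0.00405). The 60 bases of its neighbour A_30_P01028766 are those of the array's own Gm3776 probe, which the array places 26483 bases away, and both rose by 4.5 (SE 0.69), so its signal cannot be told apart from that of the gene. A_30_P01020518, which shares 20 bases with the array's probe for an Ensembl transcript, rose by 2.34 (SE 0.56, adjusted p = 0.0193). On the reverse strand A_30_P01021311 rose by 2.25 (SE 0.53, adjusted p = 0.0179), while A_30_P01033583, at 0.76 (SE 0.34, adjusted p = 0.135), did not pass. The cluster's Gm10639 (3.66, SE 0.66), Gsta2 (3.25, SE 0.7) and Gsta4 (2.13, SE 0.42) probes rose as well, and Gsta3 was at -0.55 (adjusted p = 0.134). A_30_P01020518, A_30_P01018914 and A_30_P01028766 lie end to end on the forward strand, from 78116774 to 78116953. A_30_P01021311 lies opposite the first of them, from 78116779 to 78116838, so these are not separate rises. Near-identical paralogs can share signal here, and which gene each lincRNA probe reads is uncertain. The bases of these probes were not searched against whole transcripts. Whether they read an intergenic RNA or the coding sequence of a gene or pseudogene was therefore not established.

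For the other rises the nearest gene with a tested probe did not pass the test. A_30_P01024472 (chr11:35805295-35817263, forward) read 2.07, 1.22, 1.2 and 2.15 in Rbpj+/+ and 4.8, 4.99 and 4.13 in Rbpj-/- animals, a difference of 2.98 (SE 0.33, adjusted p = 0.000955). The groups were well apart, and the nearest such gene, Wwc1, was 157799 bases away and at 0.18 (adjusted p = 0.557). A_30_P01033054 (chr5:35893909-35899497, forward), a probe of 21.7% GC, read -0.53 to -2.25 in Rbpj+/+ and 0.59 to 1.5 in Rbpj-/- animals, a difference of 2.49 (SE 0.41, adjusted p = 0.00477). A_30_P01019474 (chr12:89519675-89533975, forward) was high only in Rbpj -/-_N3 (2.04) and Rbpj -/-_2866 (0.78), with Rbpj -/-_N5 at -2.1 inside the Rbpj+/+ range, and its 2.09 (SE 0.82, adjusted p = 0.0958) lost the call on leaving out any animal but Rbpj -/-_N5 (values of 1.19 to 2.26). For the 6 rises between H19 and this probe the exact two-sided permutation p over the 35 orderings was 0.0286, the smallest they allow, and for H19 it was 0.0571. These probes were picked for their large differences, so a small p was likely in advance and adds no separate support.

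The largest falls were spread over 5 chromosomes. A_30_P01025584 (chr1:74084292-74138492, reverse) read 1.3, 1.31, 1.08 and 1.37 in Rbpj+/+ and -2.68, -3.44 and -3.24 in Rbpj-/- animals, a difference of -4.38 (SE 0.22, adjusted p = 5.97e-05). The Rbpj+/+ animals lay close together and the groups were far apart. A_30_P01022043 (chr7:50509139-50526856, reverse) read 2.52, 1.84, 2.54 and 3.71 and then -1.37, -0.99 and -1.45, a difference of -3.92 (SE 0.39, adjusted p = 0.000649). A_30_P01022804 (chr7:134369091-134376468, forward) read 3.96, 3.69, 4.57 and 4.66 and then 0.56, 0.97 and 1.12, a difference of -3.33 (SE 0.28, adjusted p = 0.00038). The genes nearest to these probes, on the array's own positions, did not pass the test: Zfp715, a zinc finger gene 41919 bases from the second, was at -0.25 and Zfp553, 4953 bases from the third, at -0.28.

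A_30_P01019218 (chr5:107503800-107515575, reverse) read 0.66, 1.02, 1.44 and 1.16 in Rbpj+/+ and -1.37, -2.47 and -2.03 in Rbpj-/- animals, a difference of -3.03 (SE 0.29, adjusted p = 0.000579). It lies 21924 bases from Tgfbr3, the TGF-beta co-receptor betaglycan, whose probe was at 0.08 (adjusted p = 0.795). A_30_P01017959 (chr10:87541696-87547421, reverse) fell by 2.75 (SE 0.37, adjusted p = 0.0022), while Parpbp, which encodes a PARP1-binding regulator of DNA repair on the same strand 12368 bases away, rose by 2.1 (SE 0.37, adjusted p = 0.00631). The last 3 of the 8 falls, on chromosomes 12, 10 and 1, were -2.33, -2.22 and -2.2 (adjusted p = 0.00936, 0.00286 and 0.00258). In all 8 the genotypes did not overlap, and the exact two-sided permutation p was 0.0286 for each, the smallest the orderings allow. The falls, like the rises, were picked for their large differences. Both results were therefore likely in advance and add no separate support. Among lincRNA probes detected on every array the genotypes did not overlap in 42.4%, and among all probes so detected in 36.0%.

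**Figure D3:**
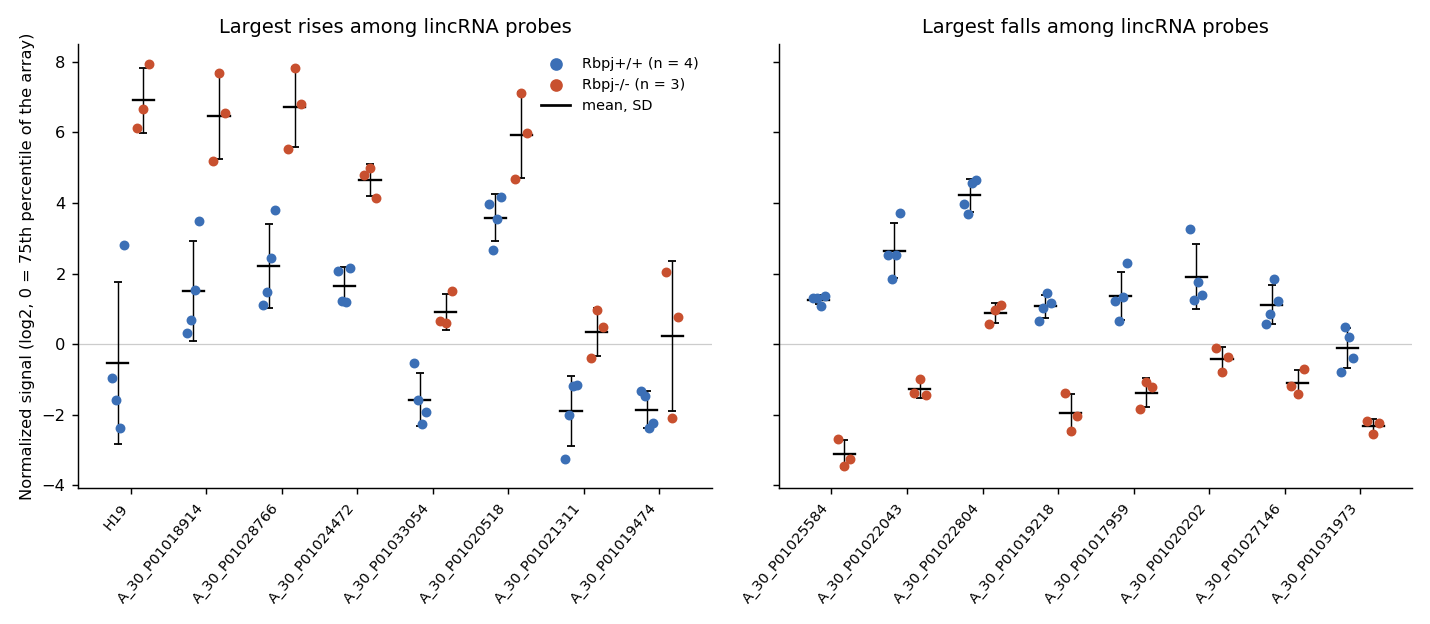
Normalized signal (log2, y axis) in each of 4 Rbpj+/+ and 3 Rbpj-/- animals for the 8 lincRNA probes with the largest rises (left) and falls (right) among those detected on all 7 arrays and past adjusted p 0.1; points are animals, lines means and bars SD. In the right panel every Rbpj-/- value lies under every Rbpj+/+ value, and in the left panel A_30_P01019474 has a Rbpj-/- animal at -2.1 inside the Rbpj+/+ range.

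Some lincRNA probes were detected in every animal of a genotype and in none of the other: 24 in Rbpj-/- alone and 8 in Rbpj+/+ alone. Here the dim genotype was given only a limit. On each array this was the higher of the probe's own reading and the lowest signal well above background. The fold is therefore a bound, and since this pattern chose the probes no p is given. A_30_P01032322 (chr9:41368823-41369514, forward) read -0.6 to -1.28 in Rbpj+/+ animals and was at least 6.32-fold lower in Rbpj-/-. A_30_P01025700 (chr13:108548345-108679004, forward), A_30_P01018279 (chr15:99765243-99783300, forward) and A_30_P01029986 (chr1:94611439-94613779, reverse) were at least 5.17-fold, 2.97-fold and 2.77-fold lower. In the other direction A_30_P01028123, on the reverse strand of the chromosome 9 cluster, was at least 5.23-fold higher, A_30_P01023554 (chr17:34018371-34019394, reverse) at least 3.69-fold, A_30_P01025587 (chr1:94611439-94613779, reverse) at least 3.55-fold and A_30_P01033124 (chr3:146629425-146649125, forward) at least 3.4-fold. Without Rbpj -/-_N3 the bounds of A_30_P01023554 and A_30_P01025587 were 2.2-fold and 2.24-fold. The differences of the 4 lower probes were -4.12 to -2.15 and those of the 4 higher probes 1.88 to 3.18, but after normexp background correction, which adds an offset, they shrank to -1.04 to -0.65 and 0.23 to 0.51.

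The region chr1:94611439-94613779 thus held a probe in each list, on the same strand. A_30_P01025587, which starts at 94611451, read -3.75, -3.6, -4.77 and -4.03 in Rbpj+/+ and -0.18, -2.2 and -2.16 in Rbpj-/- animals. A_30_P01029986, which starts at 94611532, read -2.34, -2.55, -2.2 and -1.52 and then -4.77, -4.4 and -3.76. After normexp background correction the differences of the pair were 0.27 and -0.65, in place of 2.52 and -2.15. Among the 1957 combinations of region and strand, 9 held both a higher and a lower call.

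The brightest lincRNA probes moved less, and 4 of them are described here. A_30_P01027122 (chr1:193875525-193978800, reverse) read 9.71, 9.61, 10.04 and 10.25 in Rbpj+/+ and 9.01, 9.21 and 8.82 in Rbpj-/- animals, a difference of -0.89 (SE 0.22, adjusted p = 0.0223) that was -0.3 and lost the call after quantile normalization. Its 60 bases were not searched against whole transcripts, so that it reads an intergenic RNA alone was not established. The other 3 were GC-rich, at 78.3% to 83.3%. A_30_P01020570, on chromosome 12, fell by 0.89 (SE 0.18, adjusted p = 0.0112). A_30_P01031264, on the other strand of the same region, was at -0.71 (SE 0.21, adjusted p = 0.0418) and lost the call after quantile normalization (-0.31) and without Rbpj -/-_N3 (-0.56), Rbpj +/+_1024 (-0.68) or Rbpj +/+_991 (-0.64). A_30_P01031448, at -0.45 (adjusted p = 0.134), did not pass.

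Only 12 names of characterized RNAs stand among the lincRNA probes, 57 probes in all, and 8 names with 23 probes were detected. H19 was the only one called. The 5 probes of NEAT1, the scaffold of nuclear paraspeckles, were at -0.51 to -0.31, and the 3 of NEAT2, now Malat1, an RNA of nuclear speckles, at -0.49 to -0.33, with adjusted p of 0.347 or more. All 5 TUG1 probes were at 0.41 to 0.5, the lowest adjusted p being 0.122, whereas the brightest ordinary Tug1 probe, 3751 to 3991 bases away, was at -0.3 (adjusted p = 0.373) and 1 of 3 Tug1 gene probes was lower. Single probes of KCNQ1ot1 (-0.23), HOTAIR (-0.62) and BRN1-A (-0.57) and a pair of NRON (-0.11 and 0.28) did not pass either.

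A list of 71 known long noncoding RNA genes was read from ordinary gene probes, 53 of them on the array and 36 tested. Of these 8 were lower and 4 higher, shares near those of 19.2% and 14.3% over all tested probes, and their median was -0.34. Zfas1 fell by 0.98 (SE 0.22, adjusted p = 0.0168) and Gas5, an RNA of growth-arrested cells, by 0.97 (SE 0.21, adjusted p = 0.0142) at its brightest probe, 1 of its 3 probes being lower. Of 12 Snhg genes, which host small nucleolar RNAs, 3 were lower, with Snhg12 at -0.89, Snhg15 at -0.73 and Snhg6 at -0.66, 1 was higher and 8 did not pass. Lncpint, an RNA induced by p53, fell by 1.7 (SE 0.47, adjusted p = 0.0328), and of 3 lincRNA probes on its strand A_30_P01023118 (-1.53, adjusted p = 0.0486) and A_30_P01033525 (-1.58, adjusted p = 0.0198) fell and A_30_P01021373 was at -1.12 (adjusted p = 0.134). Beside H19 the higher genes were Snhg18 (0.82), Meg3 (1.04, SE 0.3, adjusted p = 0.0387), a maternally expressed RNA of the imprinted Dlk1 locus, and Dio3os of the same locus (1.17), whose probe was detected throughout only in Rbpj-/-. Mirg, also of that locus, was at 2.64 (SE 1.07, adjusted p = 0.105).

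Probes to the same strand of a region may read the same transcript, which was not tested, and are no replicates of each other. They can be set side by side. Of 1621 such combinations with a probe detected on all 7 arrays, 586 had at least 2, and in 454 (77.5%, Wilson 95% interval 73.9% to 80.7%) all had the same sign; the interval covers counting only. Since 20.3% of the probes had a positive difference and the rest nearly all a negative one, signs agree often for that alone. Every such probe was called lower in 493 of the 1621 and called higher in 46. These counts include combinations with a lone such probe, where nothing can be set side by side. They therefore do not measure agreement between probes, and how many came from the 586 was not counted. The 4 regions with at least 3 probes and the largest mean changes were H19, the reverse strand of chr9:78107225-78118850, where 4 of 5 were higher, and 2 further regions. Most of these calls rest on probes detected throughout only in Rbpj-/-: 4 of the 5 at H19, 3 of the 4 on chromosome 9, and every probe of the further regions. These were chr17:34018371-34019394 (1.8 to 1.99, 3 probes) and chrX:90997595-91009570 (1.56 to 2.13, 3 of the 10 on the array), both on the reverse strand; after normexp their probes were at 0.02 to 0.4 and at -0.12 to 0.06.

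Both strands were detected in 330 regions. In the 147 whose detected probes were on all 7 arrays, the mean differences of the strands had the same sign in 117 (79.6%), with a correlation across regions of 0.14, beside the same excess of negative values; 45 had lower calls on each strand, 2 had higher calls on each, and 6 had calls in opposite directions. Of those 6, a pair was picked for naming after the values were seen. In chr2:157361470-157379813 the forward strand was at 1.1 and the reverse at -1.05. In chr5:96591892-96606467 all 3 forward probes rose, with a mean of 0.9, while the mean of 3 reverse probes was -0.01 with 1 lower call. By mean change the leading strand pairs were chr9:78107225-78118850, with both strands up, chr10:87541696-87547421, with the forward strand at 0.45 (adjusted p = 0.387) against the falls on the reverse, chr4:135896689-135918414 and chr3:41143423-41359623. In chr4:135896689-135918414 the reverse probe A_30_P01024647, detected throughout only in Rbpj+/+, read -0.18 to 1.44 in Rbpj+/+ and -3.77 to -4.89 in Rbpj-/- animals, while A_30_P01027837, on the same strand, was at -0.01. In chr3:41143423-41359623 the forward probe A_30_P01028970 fell by 0.98 (SE 0.19, adjusted p = 0.00934).

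Each lincRNA probe was set against the closest gene with a tested probe, on the array's positions and by the distance between probe centres. Within 1 kb on the same strand 191 of 229 lincRNA probes detected on all 7 arrays (83.4%, 78.0% to 87.7%) had the sign of their gene, 66 were lower and 43 higher, and the gene was called in the same direction in 46 and 33 of these. The correlation of the differences was 0.8. These pairs partly set a transcript beside itself: for 135 of the 229 the gene is not classed as protein-coding by RefSeq, as with H19, Neat1, Malat1 and Dancr, and 50 share at least 30 bases with a gene probe. Of the 229, 12 lie by a gene that RefSeq places on another chromosome than the array does. In the 66 pairs left without any of these, a restriction chosen after seeing the data, 52 (78.8%, 67.5% to 86.9%) had the same sign and the correlation was 0.66; 9 were lower, with the gene lower in 3, and 11 higher, with the gene higher in 7.

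On the opposite strand within 1 kb 89 of 137 (65.0%, 56.7% to 72.4%) had the sign of their gene, with a correlation of 0.3; 40 were lower, their gene being lower in 7 and higher in 3. The pairs on the same and the opposite strand come from 101 and 76 genes and share arrays and neighbouring probes, and no p is given.

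On the same strand the likeness was lower farther away. The correlation was 0.34 over 426 probes 1 to 10 kb away, 0.31 over 486 at 10 to 50 kb and -0.01 over 422 farther off, and the share with the same sign was 67.4%, 58.6% and 48.1%. On the opposite strand there was no steady order: the correlation was 0.03 at 1 to 10 kb, 0.23 at 10 to 50 kb and -0.1 farther off. Of 282 lower probes more than 50 kb from a tested gene on either strand, the gene was lower for 60 and higher for 59. With both strands counted, the median lincRNA difference was -0.32 within 1 kb, where 55 of 366 probes were higher, and -0.5 at 1 to 10 kb, where 20 of 653 were; it was -0.51 at 10 to 50 kb and -0.5 beyond.

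**Figure D4:**
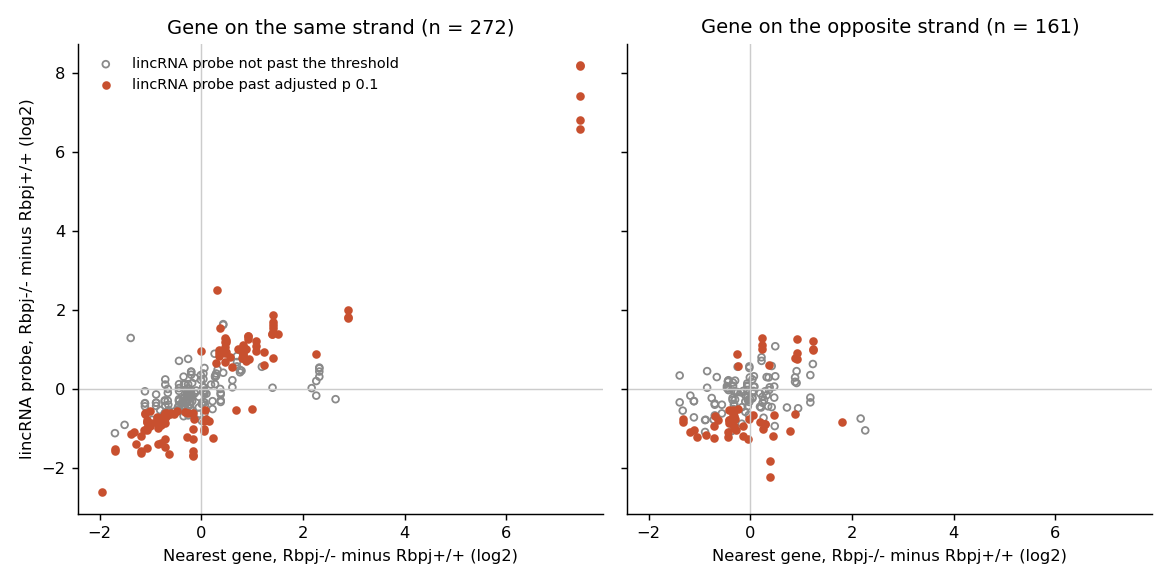
Difference (Rbpj-/- minus Rbpj+/+, log2) of each lincRNA probe (y axis) against that of the nearest gene within 1 kb (x axis), for 272 pairs on the same strand and 161 on opposite strands; filled points are lincRNA probes past adjusted p 0.1. The pairs include lincRNA probes detected throughout in only 1 genotype. The same-strand points follow the gene, with the H19 probes at the upper right, of which 1 of 5 was detected on all 7 arrays. The opposite-strand points follow it less, and their median lincRNA difference is -0.28.

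Single loci showed several relations; they were picked after their values were seen, as genes past the threshold with at least 3 lincRNA probes within 50 kb and the largest changes. Pdk3, a kinase that inhibits pyruvate dehydrogenase, rose by 3.55 (SE 0.28, adjusted p = 0.000265), and of 7 lincRNA probes 5947 to 9708 bases away the only one detected on all 7 arrays, A_30_P01020940 on the opposite strand, was lower (-0.62, SE 0.18, adjusted p = 0.0411). A further 4, detected throughout only in Rbpj-/-, had passed because they are high there and were at 1.53 to 2.13, and 3 of these were at -0.12 to 0.06 after normexp. Kifc1, a mitotic kinesin, rose by 2.89 (SE 0.64, adjusted p = 0.0144). The 3 probes of chr17:34018371-34019394 on its strand, detected throughout only in Rbpj-/-, were at 1.8 to 1.99, and A_30_P01023554 shares 59 bases with the Kifc1 probe, whereas A_30_P01031296 on the opposite strand fell by 1.39 (SE 0.27, adjusted p = 0.009). Beside Socs2, a growth hormone-induced inhibitor of cytokine signalling that fell by 3.11 (SE 0.39, adjusted p = 0.0017), 3 of 4 lincRNA probes were lower, between -0.69 and -1.37. All 4 were detected on all 7 arrays, where 36.1% of lincRNA probes were lower at any locus. The 3 had adjusted p of 0.0279, 0.0524 and 0.0903, and the first of them lies 30763 bases away on the opposite strand. Near Gm8350 (-1.95, SE 0.33, adjusted p = 0.00504) the lincRNA probes detected on all 7 arrays, A_30_P01017587 and A_30_P01032526, fell by 0.64 (SE 0.2, adjusted p = 0.0475) and 1.12 (SE 0.28, adjusted p = 0.0241). Both lie in the same region on the opposite strand, 19940 and 20062 bases away. The lower share of 36.1% at any locus applies to them too.

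At other loci no lincRNA probe or a single one was called in the direction of the gene. Socs3, an inhibitor of cytokine signalling induced by STAT3, rose by 2.54 (SE 0.59, adjusted p = 0.0173), while of 7 lincRNA probes nearby 2 were lower, about the share among all lincRNA probes, and A_30_P01032862, on its strand 8619 bases away, fell by 1.14 (SE 0.19, adjusted p = 0.00447). Anxa5, an annexin, rose by 2.26 (SE 0.3, adjusted p = 0.00214), and of 9 lincRNA probes only A_30_P01019328, 657 bases away on the same strand, passed the test (0.89, SE 0.21, adjusted p = 0.0197). Beside Emp1 (2.2, SE 0.5), an epithelial membrane protein, and Nr4a1 (2.06, SE 0.35), an immediate-early nuclear receptor, no lincRNA probe of 5 and of 3 passed; their values were -0.07 to 0.58 and -0.74 to -0.37.

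**Figure D5:**
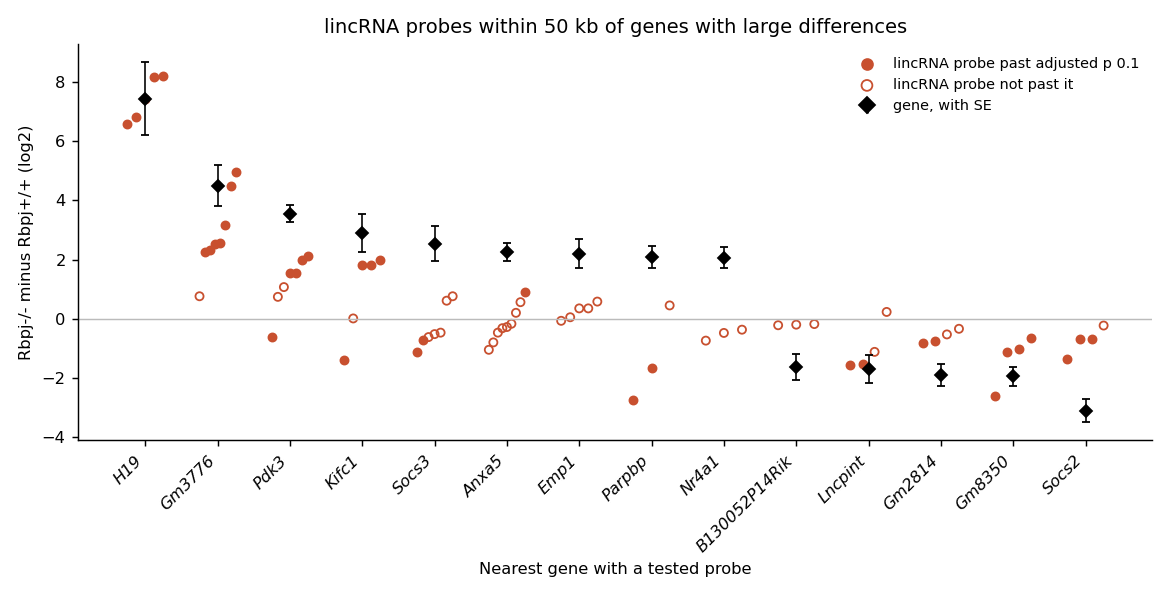
Differences (Rbpj-/- minus Rbpj+/+, log2, y axis) of lincRNA probes within 50 kb of 14 genes (x axis); diamonds are the gene with its SE, filled circles lincRNA probes past adjusted p 0.1 and open circles those not past it. The H19 probes lie near their gene, and those at Gm3776 run from 0.76 to 4.97 beside a gene value of 4.5. Those at Socs3, Anxa5, Emp1 and Nr4a1 lie between -1.14 and 0.89 while the gene is above 2.

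Not every lincRNA probe was distinct from a gene probe. Of the 3455 probes, 33 were identical over 60 bases to a probe for an annotated gene or transcript, 31 of them on the same strand, and 95 more shared 30 to 59 bases. For 30 same-strand pairs with both probes tested the differences of the twins were 0.1 apart in the median and 0.71 at most. Among the twins were probes of Dleu2 (0.11 and 0.19), the microRNA host Mir17hg (-0.54 and -0.65) and Pvt1 (-0.8 and -0.9), and A_30_P01027180 (chr17:39983902-39985688, forward), the twin of a probe for the 45S ribosomal RNA precursor Rn45s, at -1.27 against -1.23.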

How the data were processed

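Total RNA of whole liver was labelled with Cy3 and hybridised by the authors, 1 animal per array, to 1-colour Agilent arrays. The deposited intensity values (processed signal) came from Feature Extraction 10.7.3.1, per the file headers with background subtracted. The series table deposited by the authors holds log2 values of the same arrays and served as an alternative. Spots marked as non-uniform or population outliers (115 to 283 per array) were left out, none was saturated, and spots of a probe were averaged. The log2 processed signal minus the 75th percentile of each array was tested with limma 3.58.1 (R 4.3.3), Rbpj-/- against Rbpj+/+, on the 24548 probes whose signal was positive and detected in every animal of a genotype, with Benjamini-Hochberg adjustment over all of them at 0.1. Single probes were also tested by exact permutation over samples. Precision is limited by 7 arrays, and a p measures the spread between these animals. The fit was tested on simulated data of 24512 probes: of 100 probes changed by 2 log2 units 86 were recovered, and of 100 changed by 1 unit 29, with 12 false calls. Only these 200 probes were changed there, while 8241 of the 24548 passed in the data. The adjustment is less strict where more probes pass, so these recovery rates do not carry over to the data.

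The members and lists were chosen with earlier results of these data known. Probes named were the 8 largest rises and falls called among those detected on all 7 arrays, the 4 largest bounds each way, the 5 brightest, 4 regions of each kind with the largest mean change, those nearest the most changed genes, and known RNAs; 1 of the brightest is not reported here. Gene symbols were updated through RefSeq (GRCm38.p6) for 28753 probes by accession, 2034 by symbol and 164 by synonym, and 8479 kept the array's name; positions of 34 lincRNA probes were not given and these were left out where position mattered. Alternatives were normexp background correction (offset 50), quantile normalization, the percentile over probes detected on all arrays, other filters, limma-trend, a threshold of 0.05, the series table and leaving out each animal. Leaving out Rbpj +/+_1156 and Rbpj -/-_N3 together, and restricting neighbours to protein-coding genes, were chosen after seeing the data.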

Additional observations from a re-analysis of the deposited data

Results flagged for a closer look

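In 2 of the 64 lincRNA probes named, 1 of the 4 Rbpj+/+ animals lay far from the other 3; chance alone gives this in about 1 of 20 groups. For A_30_P01026450 (chr10:87541696-87547421, reverse) animal Rbpj +/+_1024, at 5.04, stood above 4.38 to 4.43, a gap of 0.93 of the range, and for A_30_P01027837 (chr4:135896689-135918414, reverse) animal Rbpj +/+_991, at -2.5, stood below -1.5 to -1.38, a gap of 0.895 of the range.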

How the results depend on the processing

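Counts of lincRNA probes higher and lower were most reduced without the filter on dim probes (52 and 195; of those detected on all 7 arrays 26 and 141), where many more probes share the adjustment. Leaving out each animal in turn gave 147 to 234 higher and 564 to 1114 lower, and 84 to 157 and 504 to 1016 of those detected on all 7 arrays, the lowest lower counts being those without Rbpj -/-_N5 and Rbpj +/+_1024. Normexp gave 179 higher and 1614 lower, quantile normalization 211 and 848, the authors' series values gave 210 and 835, and a threshold of 0.05 151 and 727. Lower calls made up 76.4% to 90.0% of lincRNA calls in all settings that kept the filter, and 78.9% without it, while for other probes that share moved between 43.3% and 58.3% with the filter and was 36.7% without it. Of 24 named probes called and detected on all 7 arrays, 344 of 384 values kept direction and call, 40 lost the call and none reversed. Among the 64 named probes the sign turned for A_30_P01031448 (0.05 after quantile normalization, 0.06 in the authors' series values), A_30_P01019221 (0.01 without Rbpj +/+_1156 and Rbpj -/-_N3), A_30_P01026203 (-0.38 to 0.02 on leaving out 1 animal each) and A_30_P01027837 (-0.28 to 0.1 on leaving out 1 animal each, with 0.07, 0.09 and 0.06 without Rbpj +/+_1155, +/+_1156 and +/+_1024 and 0.1 without Rbpj -/-_N3, 0.07 with the percentile over detected probes and 0.21 without Rbpj +/+_1156 and Rbpj -/-_N3), and, both dim, A_30_P01027891 and A_30_P01022594 (-0.12 and -0.07 after normexp); the cause was not tested. Over all 3455 probes, those detected through 1 genotype included, the share with the sign of the nearest gene was 63.6% within 50 kb, 68.8% within 10 kb, 59.5% within 200 kb and 56.9% within 50 kb of protein-coding genes without shared probe sequence, and that of regions with all probes of the same sign 71.9%, or 68.1% with probes grouped within 10 kb. Known RNA genes counted by every probe gave 5 higher and 12 lower. No paired analysis was possible because the genotypes share no replicate numbers.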
